A study of Mus musculus with 6 samples.

Results

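The transcription factors Spi1, Cebpa, Cebpb, Cebpd, Irf8, Irf4, Gfi1, Klf4 and Zeb2 direct the granulocyte and monocyte fates of myeloid progenitors. These 9 genes were read by 18 of the 45101 probe sets on the arrays, those whose platform annotation gives exactly 1 gene symbol, that of one of the 9. Zeb2 had 5 such probe sets, Cebpb, Cebpd, Irf8, Irf4 and Klf4 had 2 each, and Spi1, Cebpa and Gfi1 had 1 each. Probe sets of the same gene are not independent of each other. The samples were common myeloid progenitors (CMP), bone marrow cells that give rise to both granulocyte-monocyte and megakaryocyte-erythrocyte progenitors, from C57BL6 mice. Marrow of femurs, tibiae and ilia was loaded with H2-DCFDA, which becomes fluorescent on oxidation by reactive oxygen species (ROS). The CMP with high and those with low fluorescence were then sorted, each fraction holding 15 to 20% of all CMP. Total RNA of 3 high-ROS and 3 low-ROS CMP samples was hybridised to 1 one-colour array each. Both groups carried no further treatment or genetic change that the labels name, and the labels give neither the age of the mice nor say that the replicates were separate animals or sorts. The p-values therefore rest on the variation among the arrays of a group, some or all of which may be technical.

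Spi1 encodes PU.1, an ETS-family factor that all myeloid lineages need, and Cebpa encodes C/EBPα, the factor that takes CMP to the granulocyte-monocyte stage. Beyond that stage Irf8, often bound to DNA together with PU.1, and Klf4 favour monocytes, while Gfi1, a repressor, favours granulocytes and is known to oppose PU.1 and Irf8. In erythroid and megakaryocytic cells GATA factors hold PU.1 in check, so the balance of these factors is a classical measure of which way a progenitor leans.

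No probe set of the 9 factors passed the test between high-ROS and low-ROS CMP. With limma and Benjamini-Hochberg adjustment over 45037 probe sets, 0 of the 18 had an adjusted p under 0.05. Over all probe sets 10 had, which is 0.0222%. At an unadjusted p under 0.05, 3 of the 18 were higher in high-ROS CMP, where 3.39% of all probe sets were, and 1 was lower, where 3.57% of all were. The same 4 probe sets were those whose signals did not overlap between the groups. The 3 higher ones belonged to Irf8 and Cebpd, against 6.72% of all probe sets that were higher without overlap, and the lower one belonged to Irf4, against 5.95%. The 4 probe sets come from 3 genes, and probe sets of a gene are not independent. The 9 factors were chosen with earlier results of these data known, so these counts only describe them. The mean was higher in high-ROS CMP for 11 of the 18 and lower for 7, with a median log2 difference of 0.03, against 0.00 over all probe sets. All differences are high-ROS minus low-ROS on the scale of log2(signal + 16), which shrinks those of dim probe sets.

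**Figure D1:**
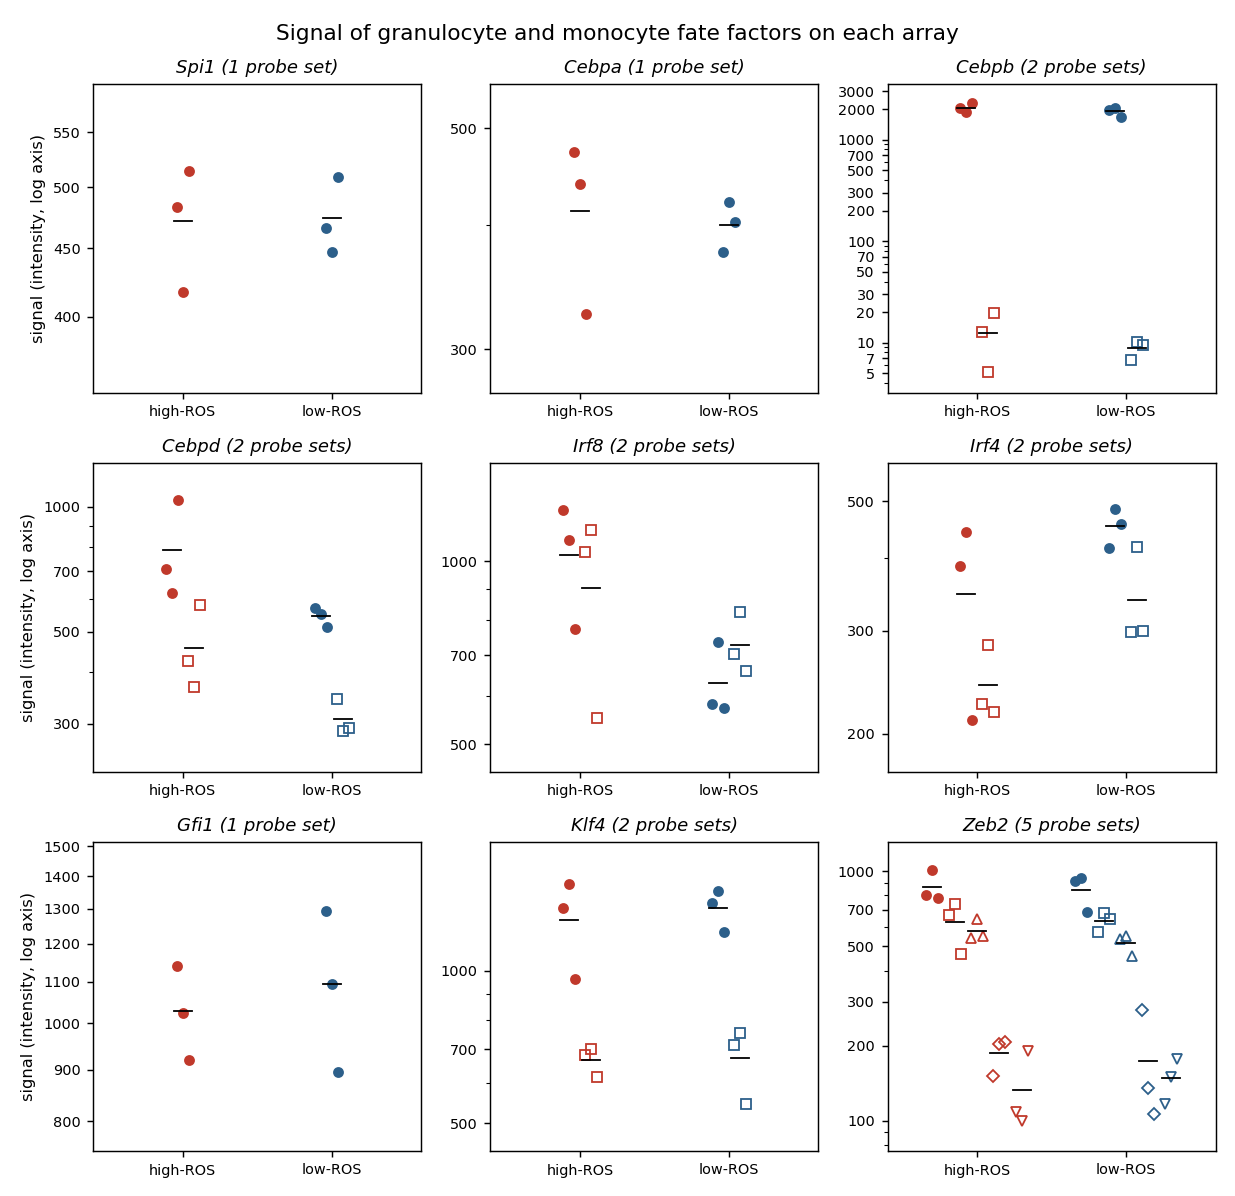
Signal of every probe set of the 9 factors on each of the 6 arrays, with an intensity scale that is logarithmic and differs between panels. Points are single arrays, in the order of replicates 1 to 3 from left to right, symbols tell the probe sets of a gene apart (the filled circle is the brightest), and short lines are the means of 3 arrays. The Cebpd points of high-ROS CMP all lie above those of low-ROS CMP on both probe sets, and those of Spi1 and Gfi1 overlap.

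The 6 arrays had median signals of 40.3 to 42.4, and no background level was given to set them against. For the Gapdh control probe sets, the 3′ signal divided by the 5′ signal, which reflects RNA integrity and labelling, was 3.57, 2.997 and 4.53 on high-ROS replicates 1 to 3 and 3.19, 2.84 and 2.54 on low-ROS replicates 1 to 3. High-ROS replicate 3, with the highest ratio, was the highest or lowest of the 6 arrays on 12 of the 18 probe sets of the factors, 66.7%, and on 45.8% of all probe sets. Low-ROS replicate 1 was so on 2 of the 18 and on 42.1% of all, and these 2 arrays lay at opposite ends of the leading principal component. Low-ROS replicate 3 was the lowest array on 8 of the 18 and the highest on 0, and was highest or lowest on 28.0% of all. High-ROS replicate 2 was highest or lowest on 8 of the 18 and on 28.5% of all. The markers of the CMP gate (Kit, Cd34, Fcgr3 and Fcgr2b, 4 of 4 measured) had a summed signal of 3266 to 3684 on high-ROS and 3342 to 3520 on low-ROS arrays. Fcgr3 gave the largest part of these sums. Kit was lower without overlap, at 523 to 559 in high-ROS and 561 to 749 in low-ROS CMP. Cd34 (log2 0.40), Fcgr3 (0.02) and Fcgr2b (-0.02) overlapped. Of markers of other cells, those of mature neutrophils (7 of 8 measured), led by S100a8 and S100a9, had sums of 46029 to 47850 in high-ROS and 46322 to 49665 in low-ROS CMP. Of these 7 genes 0 had a log2 difference above 0. Ngp (log2 -0.07), Ltf (-0.13) and Mmp8 (-0.30) were lower in high-ROS CMP without overlap. S100a8 (-0.01), S100a9 (-0.01), Camp (-0.03) and Cxcr2 (-0.37) overlapped. The markers of mature monocytes and macrophages (7 of 8 measured) had sums of 2140 to 2341 and 1990.2 to 2227, and those of dendritic cells (6 of 6 measured, with Xcr1 below the median signal on every array) 2750.1 to 3105 and 2630 to 3093, in high-ROS and low-ROS CMP in that order. Lists for B, T and NK cells, mast cells and basophils, and eosinophils also overlapped between the groups. The stem cell list (5 of 5 measured) did not overlap, at 338 to 517 in high-ROS and 708 to 951 in low-ROS CMP. Hlf (log2 -0.60), Tek (-2.07) and Slamf1 (-1.66) were lower without overlap, while Mecom (-0.68) and Procr (0.05) overlapped. The megakaryocyte list (5 of 5 measured, with Tubb1 below the median signal on every array) did not overlap either, at 702 to 911 and 1277 to 1297. Most of the megakaryocyte sums was Pf4, at 534 to 752 in high-ROS and 1060 to 1135 in low-ROS CMP. Itga2b was also lower without overlap. Gp9 (log2 -0.19), Ppbp (0.34) and Tubb1 (0.21) overlapped. The erythroid list (3 of 5 measured, with Hba-a1 below the median signal on every array) had 6128 to 7427 in high-ROS and 8010.4 to 8074 in low-ROS CMP. Most of these sums was Slc4a1, at 4350 to 5366 and 6066 to 6161, while Alas2 overlapped (log2 -0.06). The part of these shifts in the results below was not tested, and in RNA of sorted cells a lower share of a cell type and less RNA per cell cannot be told apart.

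The early myeloid factors Spi1 and Cebpa had similar signals in both groups. Spi1 had signals of 483, 417 and 515 on the high-ROS arrays, against 466, 447 and 509 on the low-ROS arrays. The groups overlapped fully, and the spread among high-ROS replicates was wider than the difference of their means, which was -0.01 in log2 (SE 0.140, 95% interval -0.32 to 0.30, limma adjusted p = 0.992). Cebpa had signals of 473, 439.6 and 325 on the high-ROS arrays, against 375, 422 and 403 on the low-ROS arrays. High-ROS replicates 1 and 2 were the highest of the 6 arrays and replicate 3 the lowest, so the log2 difference was 0.03 (SE 0.165, 95% interval -0.34 to 0.39, limma adjusted p = 0.980). These intervals leave room for a change of either factor by up to about the size of their bounds, so equal levels are not shown.

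Irf8, the interferon regulatory factor of monocyte and dendritic cell development, had the highest log2 difference among the 9 factors on the brightest probe set of each. With the probe sets of each gene averaged, Irf8 had 0.46 and Cebpd 0.50. The Irf8 probe sets differed from each other. The brighter one, 1448452_at, had signals of 1215, 1086 and 775 on the high-ROS arrays, against 582, 737 and 574 on the low-ROS arrays. Every high-ROS array lay above every low-ROS array, with high-ROS replicate 3 only just above low-ROS replicate 2. The means were 1026 ± 226 and 631 ± 92.0 (SD, n = 3 each), a 1.59-fold difference (log2 0.67, SE 0.176, 95% interval 0.28 to 1.06, limma adjusted p = 0.597). The other probe set, 1416714_at, is annotated to the same database sequence. It had signals of 1037, 1125 and 551 on the high-ROS arrays, against 703, 824 and 659 on the low-ROS arrays. Here high-ROS replicates 1 and 2 were again the highest, but high-ROS replicate 3 was the lowest of the 6 arrays, and the log2 difference was 0.25 (SE 0.231, 95% interval -0.26 to 0.76, limma adjusted p = 0.850). Without high-ROS replicate 3 the log2 differences of the 2 probe sets were 0.86 and 0.56 (limma adjusted p = 0.207 and 0.480), and they were, once the Gapdh ratio entered the fit as a covariate, 0.90 and 0.70 (limma adjusted p = 0.661 and 0.839).

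Irf4, a close relative of Irf8 that acts in dendritic cells, macrophages and lymphocytes, averaged less signal in high-ROS CMP on both its probe sets. On 1421173_at the signals were 386, 443 and 211 on the high-ROS arrays, against 415, 485 and 457 on the low-ROS arrays. High-ROS replicate 3 had less signal than any other array, and replicate 2 lay within the low-ROS range. The log2 difference was -0.43 (SE 0.235, 95% interval -0.95 to 0.09, limma adjusted p = 0.745). On the dimmer 1421174_at the signals were 225, 284 and 218 on the high-ROS arrays, against 299, 418 and 299 on the low-ROS arrays. No high-ROS array reached the lowest low-ROS array, and the log2 difference was -0.45 (SE 0.184, 95% interval -0.86 to -0.04, limma adjusted p = 0.702). Without high-ROS replicate 3 the first probe set's log2 difference was -0.12, and with the covariate it was 0.08. The second gave -0.38 and -0.29 under these 2 settings.

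Irf8 and Irf4 are shown by the bases before their first annotated start, because each had a probe set without overlap and these differed in opposite directions. Both stretches are RefSeq sequence of build GRCm38.p6 on the plus strand, 250 bases long and written 5′ to 3′, Irf8 at chr8:120736108-120736357 and Irf4 at chr13:30748983-30749232. Capitals mark the letters of a searched motif, on either strand, the Gfi1 motif AAATCAC (here on the minus strand) in Irf8 and the Klf motif CACCC in Irf4.
Irf8: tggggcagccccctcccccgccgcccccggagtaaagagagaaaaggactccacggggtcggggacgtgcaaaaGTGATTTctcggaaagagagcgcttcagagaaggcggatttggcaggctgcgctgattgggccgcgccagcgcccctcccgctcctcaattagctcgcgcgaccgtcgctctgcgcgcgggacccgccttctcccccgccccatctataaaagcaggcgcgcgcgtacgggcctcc
Irf4: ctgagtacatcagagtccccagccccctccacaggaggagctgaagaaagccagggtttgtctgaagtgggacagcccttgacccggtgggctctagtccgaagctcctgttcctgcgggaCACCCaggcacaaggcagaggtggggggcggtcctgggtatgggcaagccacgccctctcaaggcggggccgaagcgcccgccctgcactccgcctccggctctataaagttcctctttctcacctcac

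The motif search covered windows from 250 bases before to 50 bases after each annotated start, on both strands, and 7 of the 9 factors had 12 such windows. Zeb2 had 4 of these, among them chr2:45113204-45113503 and chr2:45113230-45113529, which largely overlap. The 12 are therefore not all separate sequences. The Gfi1 motif was found in 1 of the 12, that of Irf8 at position -176 from the start, and in 3.2% of all 32851 windows of the same length. The Klf motif CACCC was found in 6 of the 12, in windows of Cebpa, Cebpb, Irf4, Gfi1 and Zeb2, and in 57.5% of all. The spaced C/EBP motif TTNNGNAA was found in 2, of Gfi1 and Zeb2, and in 40.7% of all. The PU.1 motif GAGGAAGT (3.2% of all), the IRF motif GAAANNGAA (8.56%), the ETS-IRF motif GGAANNGAA (8.24%) and the C/EBP palindrome TTGCGCAA (0.183%), which is itself a case of the spaced motif, were in none of the 12. The IRF and ETS-IRF motifs can overlap each other. A match is only a run of letters, and its absence says only that these letters are not in this window.

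The C/EBP factors induced by stress and cytokines are Cebpb and Cebpd. Cebpb, needed for emergency granulopoiesis and for monocyte survival, was read by 1 bright and 1 dim probe set. The bright one, 1418901_at, had signals of 2028, 1880.5 and 2285 on the high-ROS arrays, against 1978, 2057 and 1673 on the low-ROS arrays. The groups overlapped, and the log2 difference was 0.12 (SE 0.116, 95% interval -0.14 to 0.37, limma adjusted p = 0.859). The second, 1427844_a_at, stayed between 5.14 and 19.4 on all arrays, below the median signal of each, and says little about the gene.

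Cebpd, an acute-phase factor of myeloid cells, had higher signals in high-ROS CMP on both its probe sets. On 1456605_at the signals were 707, 619.6 and 1041 on the high-ROS arrays, against 571, 552 and 514 on the low-ROS arrays. On 1423233_at they were 424, 369 and 580.1 on the high-ROS arrays, against 344, 289 and 294 on the low-ROS arrays. On both, every high-ROS array lay above every low-ROS array, and high-ROS replicate 3 stood well above its group. The means of the brighter probe set were 789 ± 223 and 546 ± 29.1 (SD, n = 3 each), a 1.40-fold difference (log2 0.49, SE 0.180, 95% interval 0.09 to 0.88, limma adjusted p = 0.702). The dimmer one had a 1.44-fold difference (log2 0.52, SE 0.181, 95% interval 0.12 to 0.92, limma adjusted p = 0.697). Without high-ROS replicate 3 the log2 differences were 0.27 and 0.35 (limma adjusted p = 0.933 for both), and with the covariate 0.10 and 0.18 (limma adjusted p = 0.955 and 0.927). High-ROS replicate 3 had both the highest Cebpd signals and the highest Gapdh ratio. That ratio ran partly with the groups, at 2.997 to 4.53 on high-ROS and 2.54 to 3.19 on low-ROS arrays. Fits with it as a covariate, also those of Irf8 and Irf4, therefore cannot fully tell the ratio and the group apart.

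**Figure D2:**
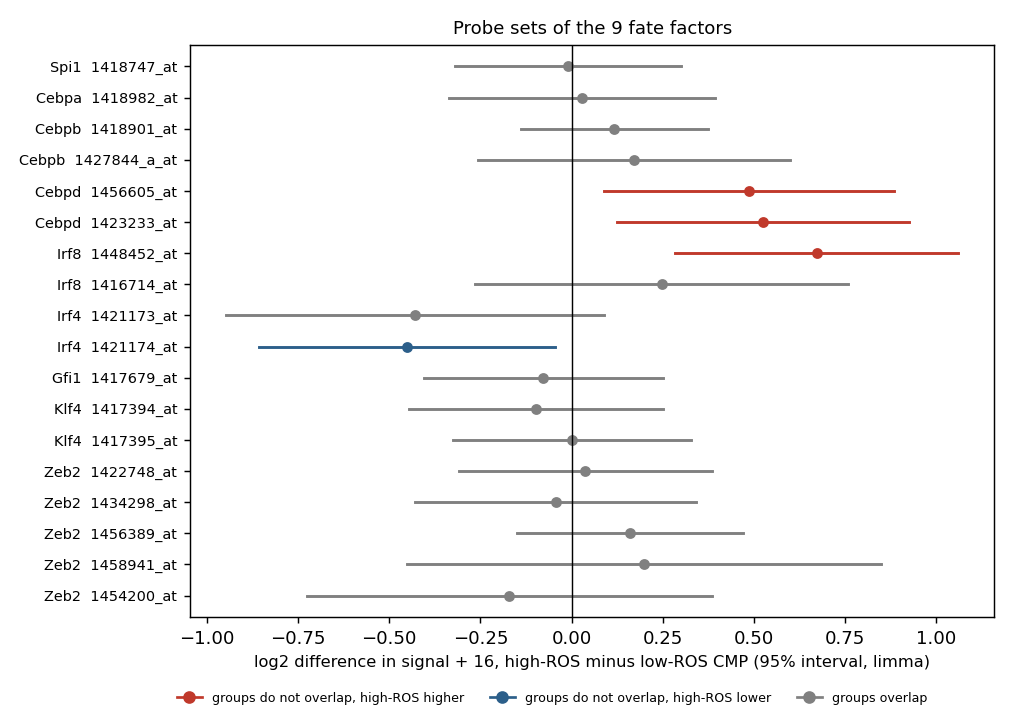
Log2 difference in signal + 16, high-ROS minus low-ROS CMP, of each of the 18 probe sets, with 95% intervals from limma over 3 arrays per group. Colours mark probe sets whose groups do not overlap: both of Cebpd and 1448452_at of Irf8 to the right of 0, and 1421174_at of Irf4 to the left.

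The granulocyte factor Gfi1 had signals of 1139, 1025 and 920.2 on the high-ROS arrays, against 1293, 1094 and 896 on the low-ROS arrays. All high-ROS values lay inside the low-ROS range. The log2 difference was -0.08 (SE 0.148, 95% interval -0.41 to 0.25, limma adjusted p = 0.935).

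Klf4, a zinc finger factor of the monocyte fate, gave no separation either. On 1417394_at it had 1326, 1483 and 960.3 on the high-ROS arrays, against 1356, 1436 and 1189.9 on the low-ROS arrays, a log2 difference of -0.10 (SE 0.158, 95% interval -0.45 to 0.25, limma adjusted p = 0.922). High-ROS replicate 1 lay among the low-ROS arrays, replicate 2 above all of them and replicate 3 below all of them. On 1417395_at it had 680.4, 702 and 617 on the high-ROS arrays, against 714, 754 and 545 on the low-ROS arrays, with a log2 difference of 0.00 (SE 0.148, 95% interval -0.32 to 0.33). All high-ROS arrays lay inside the low-ROS range there.

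Zeb2, a zinc finger factor needed for monocytes and plasmacytoid dendritic cells, was read by 5 probe sets whose log2 differences ran from -0.17 to 0.20, and all their groups overlapped. The brightest, 1422748_at, had 801, 1013 and 778 on the high-ROS arrays, against 913, 934 and 683 on the low-ROS arrays (log2 0.04, SE 0.157, 95% interval -0.31 to 0.38, limma adjusted p = 0.973). The widest spread was on 1458941_at, where low-ROS replicate 1 had 278 and the other low-ROS arrays 135 and 106, against 152, 204 and 207 on the high-ROS arrays. The second brightest, 1434298_at, had 667, 739 and 464 on the high-ROS arrays, against 572, 681 and 646 on the low-ROS arrays, with high-ROS replicate 3 the lowest of all. On 1456389_at the signals were 539, 641 and 548 on the high-ROS arrays, against 536, 550.01 and 455 on the low-ROS arrays, and the log2 difference was 0.16. The dimmest, 1454200_at, had 109, 100.2 and 190 on the high-ROS arrays, against 116, 150.2 and 177 on the low-ROS arrays. None of the 5 had an unadjusted p under 0.05, and no array was high or low on all of them.

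Pairs of factors were then compared within each array, as log2 of one minus log2 of the other on their brightest probe sets. Such a difference shows whether 2 genes changed unequally. It does not rank their levels. For 5 pairs an exact 2-sided permutation test of 3 arrays against 3 was run, whose smallest possible p is 0.1, so no pair could pass 0.05. Irf8 minus Gfi1, a monocyte against a granulocyte factor, was 0.09, 0.08 and -0.24 on the high-ROS arrays, against -1.13, -0.56 and -0.63 on the low-ROS arrays. The groups did not overlap, and they differed by 0.75 (exact p = 0.1, 0.167 after adjustment over the 5 pairs). Irf8 minus Cebpa was 1.33, 1.27 and 1.21 on the high-ROS arrays, against 0.61, 0.78 and 0.50 on the low-ROS arrays. The groups did not overlap here either, and they differed by 0.64 (exact p = 0.1, adjusted p = 0.167). Both gaps came mainly from Irf8, which alone differed by 0.67 on 1448452_at, while Gfi1 differed by -0.08 and Cebpa by 0.03. The other Irf8 probe set, 1416714_at, overlapped between the groups (log2 0.25), and no pair was computed with it.

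The myeloid factors were also set against GATA factors. Spi1 minus Gata1, the classical pair of myeloid against erythroid fate, was 0.21, 0.11 and -0.39 on the high-ROS arrays, against -0.43, -0.59 and 0.02 on the low-ROS arrays. Replicate 3 of each group lay within the other group's range. The groups differed by 0.31 (exact p = 0.2, adjusted p = 0.25). Leaving out replicate 1 or 3 of high-ROS CMP moved this to 0.19 or 0.49, and leaving out replicate 2 or 3 of low-ROS CMP to 0.18 or 0.49. Cebpa minus Gata2 was 1.11, 0.83 and 0.89 on the high-ROS arrays, against -0.64, -0.50 and -0.54 on the low-ROS arrays. That was the widest gap of the 5, at 1.51 (exact p = 0.1, adjusted p = 0.167), and it came from Gata2, since Cebpa alone differed by 0.03. Cebpd minus Cebpa was 0.56, 0.48 and 1.63 on the high-ROS arrays, against 0.59, 0.38 and 0.34 on the low-ROS arrays, and the groups overlapped (difference 0.46, exact p = 0.3, adjusted p = 0.3). Without high-ROS replicate 3 the difference was 0.088.

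**Figure D3:**
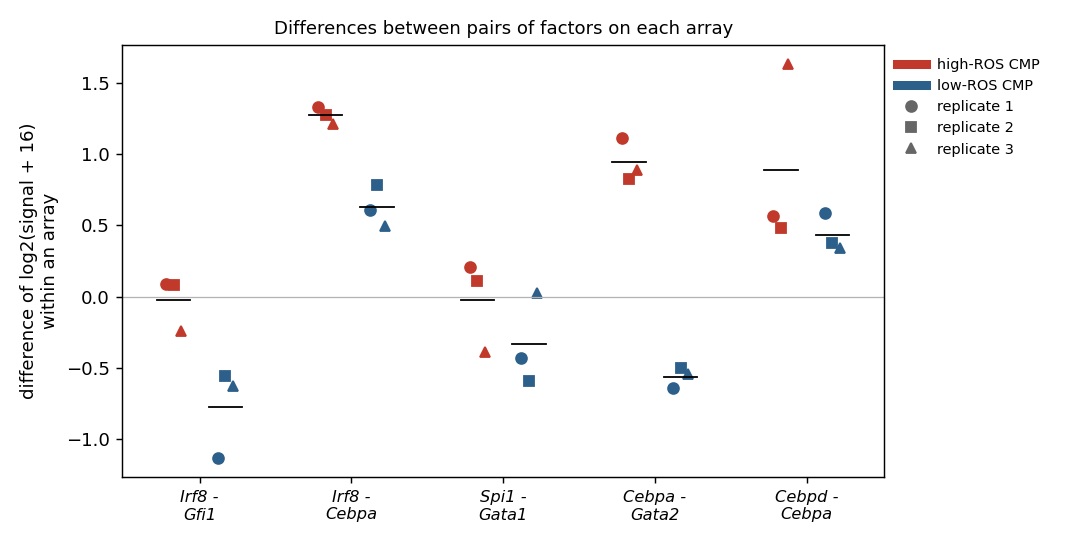
Difference of log2(signal + 16) between 2 factors on each array, for 5 pairs, with high-ROS CMP left of low-ROS CMP. Symbols are replicates and short lines are means of 3 arrays. Irf8 is read by 1448452_at only. Irf8 minus Gfi1, Irf8 minus Cebpa and Cebpa minus Gata2 are higher on every high-ROS array than on any low-ROS array, and the other 2 pairs overlap.

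Among the regulators that oppose the myeloid fates, Gata2, a stem cell, mast cell and early megakaryocyte factor, was the 1 gene that passed. Its probe set 1428816_a_at had 210.3, 240.3 and 168 on the high-ROS arrays, against 593, 604 and 594 on the low-ROS arrays. It fell 2.79-fold (log2 -1.48, SE 0.160, 95% interval -1.83 to -1.12, limma adjusted p = 0.0147). Its other probe set, 1450333_a_at, had a log2 difference of -0.72 (SE 0.158, limma adjusted p = 0.421), also without overlap. The call on the first held in 9 of 17 other settings. It was lost, among others, without high-ROS replicate 1 (limma adjusted p = 0.178), without low-ROS replicate 1, 2 or 3 (limma adjusted p = 0.107, 0.164 and 0.184), with the replicate number as a block (limma adjusted p = 0.0508), with the Gapdh covariate (limma adjusted p = 0.203) and without a mean-variance trend (limma adjusted p = 0.103), while the log2 difference stayed between -1.59 and -1.26. Of the 13 probe sets of these 10 genes 1 fell and 0 rose, where 0.0222% of all probe sets were called. Without adjustment 3 were lower, both of Gata2 and 1 of Fli1, and 0 higher, against 3.57% and 3.39% of all. This list and those below were chosen with earlier results of these data known, so their counts are description only. Over the genes the median log2 difference was -0.32, against 0.02 over all genes. Fli1, an ETS factor of megakaryocytes that was chosen after its values were seen, had -0.47 (SE 0.152, limma adjusted p = 0.689), and Gata1 had -0.32 (SE 0.210, limma adjusted p = 0.780).

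Receptors for myeloid growth factors, several of which are targets of these transcription factors, had 0 of 12 probe sets called. At an unadjusted p under 0.05, 2 were higher, against 3.39% of all probe sets, both of Csf1r, through which M-CSF acts on monocytes. Its brightest probe set had 1713, 1787 and 1479.9 on the high-ROS arrays, against 1372, 1209.9 and 977 on the low-ROS arrays, without overlap (log2 0.49, SE 0.139, limma adjusted p = 0.632). Csf3r, the receptor for granulocyte colony-stimulating factor, had overlapping signals of 496, 617 and 388 on the high-ROS arrays, against 593, 718 and 538 on the low-ROS arrays, with a log2 difference of -0.31 (SE 0.182, limma adjusted p = 0.765). Flt3, the receptor of early progenitors, had 0.56 (SE 0.259, limma adjusted p = 0.718).

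Genes of the monocyte side had 0 of 23 probe sets called. Without adjustment (p under 0.05) 6 were higher and 0 lower, where 3.39% and 3.57% of all probe sets were. These 6 hold both Csf1r probe sets already counted among the receptors. Another is Ccr2 1421186_at, at 0.62, while the brightest Ccr2 probe set, 1421187_at, had -0.13. This list too was chosen with earlier results of these data known, so the count is description only. The median over 14 genes was 0.09. Ly86, a partner of a Toll-like receptor homologue, had 986, 829.5 and 676 on the high-ROS arrays, against 464, 435 and 491 on the low-ROS arrays (log2 0.81, SE 0.154, limma adjusted p = 0.239). Ms4a6c, a membrane protein of monocytes, had 0.73 (limma adjusted p = 0.250) on its brighter and 0.04 on its dimmer probe set. Of the 14 genes 8 had a higher mean in high-ROS CMP and 6 a lower one.

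Genes of the granulocyte side had 0 of 17 probe sets called. Without adjustment 2 were higher and 0 lower, against 3.39% and 3.57% of all probe sets, and the median over 11 genes was 0.06. Cst7, an inhibitor of cysteine proteases, had 0.42 (SE 0.137, limma adjusted p = 0.689), Ctsg, a protease of primary granules, 0.31 (SE 0.106, limma adjusted p = 0.698) and Prtn3, another one, 0.16 (SE 0.0910, limma adjusted p = 0.758). Mpo, the peroxidase of those granules, had 0.06 (SE 0.0748, limma adjusted p = 0.902).

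**Figure D4:**
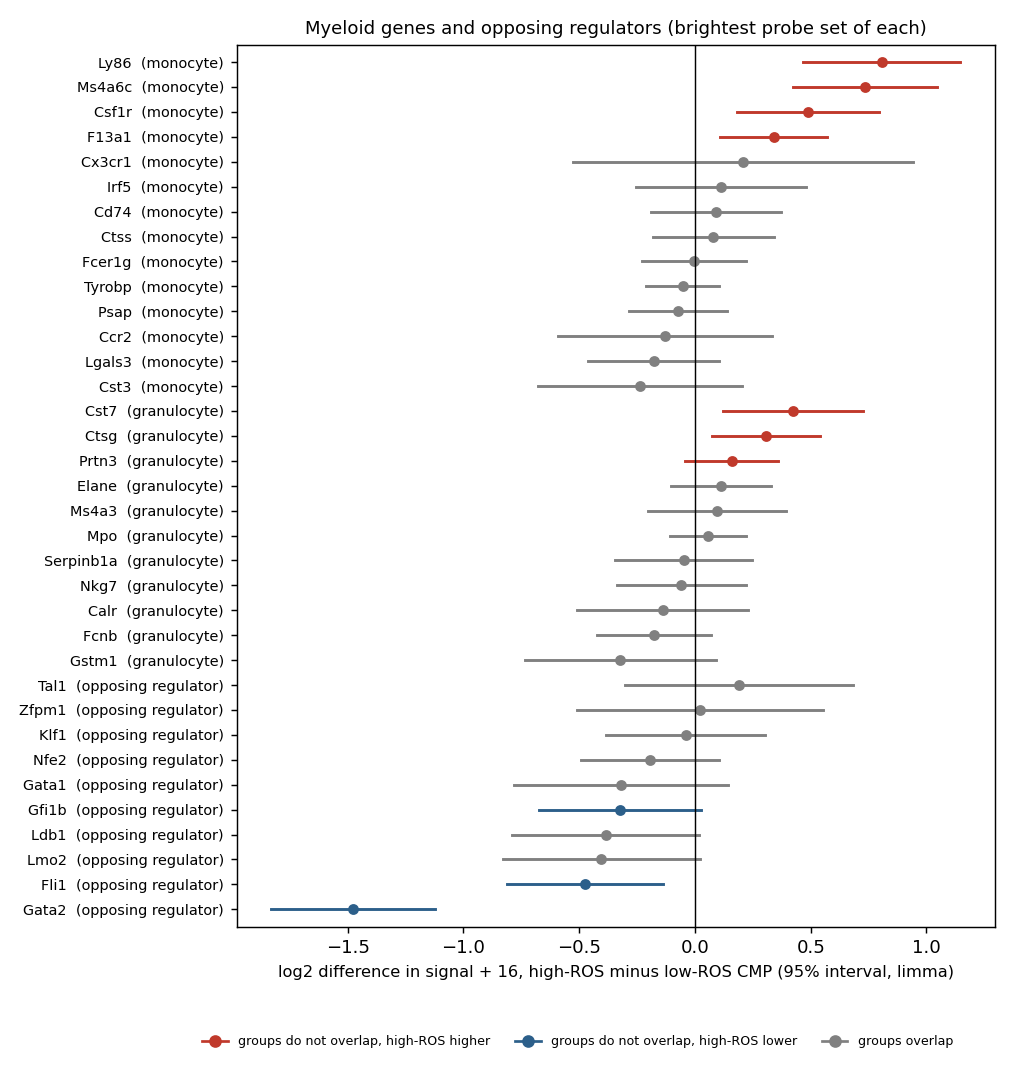
Log2 difference in signal + 16, high-ROS minus low-ROS CMP, of the brightest probe set of 14 monocyte-side genes, 11 granulocyte-side genes and 10 opposing regulators, with 95% intervals from limma and colours for genes whose groups do not overlap. Gata2 lies farthest to the left, and Ly86 and Ms4a6c farthest to the right.

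Other regulators of the same fates, 31 genes such as Runx1, Egr1, Myb and Ikzf1, had 0 of 74 probe sets called, and without adjustment 3 were higher and 4 lower, against 3.39% and 3.57% of all probe sets. Their median over genes was -0.10, with 9 genes higher and 22 lower. Tcf4, a factor of plasmacytoid dendritic cells, had 0.41 (SE 0.144, limma adjusted p = 0.701) on its brightest and from -0.19 to 0.35 on its 5 other probe sets. Egr1, an immediate early factor that also favours monocytes, had -0.34 (SE 0.127, limma adjusted p = 0.702). Nab2, which restrains Egr1, had 0.65 (SE 0.255, limma adjusted p = 0.702) from a low mean signal of 41.1, near the array medians.

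The genes whose log2 signal ran most like that of a factor over the 6 arrays are given as a description, among the named probe sets with a mean signal of at least 100, with no test, since a search this wide over 6 points gives high values on its own. For Irf8 these were Trim28 (Pearson's r 0.999), Alg8 (0.996) and Ube3a (0.996). For Cebpa they were Phb2 (0.991), Tmem198b (0.988) and Tmem43 (0.983), all 3 lowest on high-ROS replicate 3 like Cebpa itself. For Spi1 they were Klf9 (0.979), Flcn (0.977) and Rb1cc1 (0.974).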

How the data were processed

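Each array came with one linear intensity per probe set, as deposited by the authors. The summary of probes, background subtraction and scaling behind these intensity values are not given in the sources used here. Per the labels' protocols, NuGEN Ovation amplification and biotin labelling preceded hybridisation. Intensities carry no detection call, and the number of arrays limits the precision. After adding a pseudocount of 16, log2 values of 45037 probe sets (64 controls left out) were fitted with limma 3.58.1 in R 4.3.3 (lmFit, eBayes with a mean-variance trend, 2-sided, 4 residual degrees of freedom) as high-ROS minus low-ROS CMP, adjusted by Benjamini-Hochberg over all of them. The fit was tested on simulated data. Genes come from the platform annotation, and 0 probe sets with several symbols held a member. A gene's brightest probe set has the highest mean signal. Promoter sequences are RefSeq's. Figures used Python 3.11.15 and matplotlib 3.10.9.

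Named were all member probe sets, list genes past the threshold or otherwise the 3 with the smallest p, Gata1, Gata2, Csf1r, Csf3r, Mpo and Ly86, Fli1, chosen after its values were seen, and the 3 genes most like Irf8, Cebpa and Spi1. The members and lists were chosen with earlier results of these data known. Some genes of the lists are not analysed here. The labels do not say whether the replicate numbers pair samples, and the main fit did not pair them. Deviations of same-numbered arrays correlated at 0.158, 0.123 and -0.0396, those of other high-ROS and low-ROS arrays at -0.178 to 0.113. With 3 arrays per group these values cannot tell whether samples were paired. Alternatives were other scalings (quantile, 75th percentile), pseudocounts of 1 and 64, leaving out each array, both ends of the first principal component, the replicate number as a block, the Gapdh ratio as a covariate, no trend, array weights, bright probe sets, tests per gene, an adjusted p under 0.1 and a minimum 2-fold change. The same settings for Gata2 alone were added after seeing the data.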

Additional observations from a re-analysis of the deposited data

How the results depend on the processing

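None of the 18 probe sets was called by limma in any of the 20 alternative settings. Their smallest adjusted p was 0.172 (Irf8 1448452_at, array weights). Over all probe sets 10 were called, against 5 with the replicate block, 6 with the Gapdh covariate, 6 without both ends of the first principal component, 0 without a trend in limma (3070 at an unadjusted p under 0.05), 33 with array weights and 24 at an adjusted p under 0.1. Leaving out 1 array gave 3 to 8. Of 305 values of single probe sets, 274 kept their direction. Those of Irf8, Cebpd, Irf4 1421174_at, Zeb2 1456389_at and 1454200_at kept it in every such setting.

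Signs turned for Spi1 under quantile normalization (0.0084) and scaling to the same 75th percentile (0.0058), for Gfi1 (0.12), Klf4 1417394_at (0.10), Zeb2 1434298_at (0.081) and Cebpb 1427844_a_at (-0.061) without both ends of the component, for Gfi1 (0.039) and Zeb2 1434298_at (0.0053) with array weights, and with the Gapdh covariate for Cebpb (-0.071 and -0.13), Irf4 1421173_at (0.083), Klf4 (0.15 and -0.0083) and Zeb2 1434298_at (0.31) and 1458941_at (-0.15). With 1 array left out, ranges that crossed 0 were -0.075 to 0.18 for Cebpa, -0.074 to 0.072 for Spi1, -0.21 to 0.049 for Gfi1, -0.23 to 0.083 and -0.14 to 0.091 for Klf4, -0.0030 to 0.37 for Cebpb 1427844_a_at, and -0.10 to 0.12, -0.18 to 0.15 and -0.064 to 0.57 for Zeb2 1422748_at, 1434298_at and 1458941_at.

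The pair differences moved by more than the spread between replicates in 4 of 65 values: Cebpa minus Gata2 was 1.33 with a pseudocount of 64, and with the Gapdh covariate Irf8 minus Gfi1 was 1.03, Spi1 minus Gata1 0.66 and Cebpd minus Cebpa -0.15. With 1 array left out, Cebpd minus Cebpa ran from 0.088 (without high-ROS replicate 3) to 0.66, and Spi1 minus Gata1 from 0.18 (without low-ROS replicate 2) to 0.49. The cause was not tested. The replicate block cannot move a difference in this balanced design. It ended the call of Gata2 1428816_a_at (adjusted p = 0.0508) and changed no call of a member.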
